A study of Mus musculus with 12 samples.

Results

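Histone acetyltransferases transfer the acetyl group of acetyl-CoA to lysines of histones, and the H3K27ac signal over their own genes was examined in the mouse mammary carcinoma line 4T1. The 9 genes were chosen by name: Ep300, Crebbp, Kat2a, Kat2b, Kat5, Kat6a, Kat6b, Kat7 and Kat8. Of the 126464 intervals in the table, 79 carried the name of 1 of these genes, and of its 22264 gene names, 8 of the 9 were present. Kat2a had no interval of its name, and its start site lay in an interval that the annotation of the authors had given to Hspb9.

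H3K27ac, a mark of active promoters and enhancers, was measured by ChIP-seq after 48 h of treatment in wild-type 4T1 cells, with 2 libraries for each of 6 treatments. Cells received vehicle, etomoxir at 50 µM, or etomoxir together with SB204990 at 50 µM, and each of these 3 backgrounds was also run with 5 mM acetate. Etomoxir blocks the carnitine shuttle by which fatty acids reach mitochondrial oxidation, ATP citrate lyase (the target of SB204990) makes acetyl-CoA from citrate, and acetate can be turned into acetyl-CoA without that enzyme. The 2 libraries of a treatment carried 1 of 2 suffixes in their names, called set 1 and set 2 here, and the labels do not state whether they came from separate cultures, so the p-values measure the spread between these libraries only. The scaling factor reaches 1 in a library of each set, so changes within a set are given beside the pooled ones. All groups share 1 cell line, which limits the results to that line.

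The genes cover the p300/CBP, GNAT and MYST families. Ep300 (p300) and its paralogue Crebbp (CBP) acetylate H3K27 itself and are co-activators recruited to enhancers, and Kat2a (GCN5) and Kat2b (PCAF) are the alternative catalytic subunits of the SAGA and ATAC complexes, which act mainly on H3K9. Kat5 (TIP60), Kat6a (MOZ), Kat6b (MORF), Kat7 (HBO1) and Kat8 (MOF) form the MYST family, whose members have roles in DNA repair, stem cell maintenance, replication licensing and H4K16 acetylation. Some of the encoded enzymes thus deposit the mark measured here, while the signal over a gene is not a measure of its transcript, its protein or its activity.

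Each value below is a scaled signal, the read count of an interval multiplied by a factor for its library that the authors derived from human spike-in chromatin. As inferred from the values, the reads within intervals numbered 7179165 to 16676442 per library and the factors ran from 0.398 to 1. Set 2 of etomoxir + SB204990 differed from the rest, with 7179165 reads against at least 9689378 in the other 11 libraries and a median interval value of 12, where the other libraries without acetate had 4.78 to 9.51. All 7 epithelial markers examined had an interval over a start site, whose means were 398.5 to 4048 scaled reads, whereas 0 of 4 leukocyte markers had 1, and of 3 endothelial markers Pecam1 had 1, at 12.1 scaled reads.

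Start sites show where the members differ from what their names in the table give, and the 150 bases before 4 RefSeq starts are printed for that reason. The promoters of Kat2a and Kat2b belong to intervals named for a neighbour, that of Kat6b had the largest decrease of the 9 between etomoxir and etomoxir + SB204990, and that of Kat7 is shown as a MYST promoter of a contrasting composition. The sequences are from RefSeq (GRCm38.p6), 5′ to 3′ on the strand of the gene, with GC boxes (GGGCGG) and CCAAT boxes in capitals, on both strands. These are chr11:100712468-100712617 (minus strand) for Kat2a, chr17:53566821-53566970 (plus strand) for Kat2b, chr14:21499620-21499769 (plus strand) for Kat6b and chr11:95310247-95310396 (minus strand) for Kat7.
Kat2a: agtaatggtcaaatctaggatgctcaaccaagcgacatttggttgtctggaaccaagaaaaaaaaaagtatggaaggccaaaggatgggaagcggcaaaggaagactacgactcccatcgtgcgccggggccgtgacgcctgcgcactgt
Kat2b: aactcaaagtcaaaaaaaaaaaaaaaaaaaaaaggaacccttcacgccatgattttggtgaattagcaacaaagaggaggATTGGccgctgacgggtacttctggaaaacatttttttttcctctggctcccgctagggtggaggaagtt
Kat6b: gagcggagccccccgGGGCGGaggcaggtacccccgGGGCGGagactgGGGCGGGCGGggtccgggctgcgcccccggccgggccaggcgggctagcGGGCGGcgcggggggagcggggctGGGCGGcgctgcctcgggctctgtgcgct
Kat7: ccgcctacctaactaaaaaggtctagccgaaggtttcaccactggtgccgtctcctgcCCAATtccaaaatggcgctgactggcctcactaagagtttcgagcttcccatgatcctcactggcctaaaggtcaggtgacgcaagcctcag

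Within these windows Kat6b held 6 GC boxes, of which a pair overlap, Kat2b and Kat7 held 1 CCAAT box each, and Kat2a held neither motif. Over the 250 bases before the start, 8 members could be matched to a RefSeq promoter, Kat6a being the exception. A GC box was found in 4 of them (Ep300, Crebbp, Kat6b and Kat8), against 32.7% of 32817 promoters, and a CCAAT box also in 4 (Kat2b, Kat5, Kat7 and Kat8), against 33.8%. The E-box CACGTG was found in Kat5 (6.02% of promoters). The GC content of the 250 bases was 78.8% for Kat6b and 84.0% for Crebbp, but 48.8% for Kat2a, 40.8% for Kat2b and 50.8% for Kat7, against a median of 52.4% over all promoters. The windows of Ep300 and Crebbp, and nearly all of that of Kat5, lie downstream of the GENCODE starts used below. These windows and that of Kat8 overlap GENCODE exons. A match is a description of the letters and not of a bound site.

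Where a gene had several GENCODE starts, the one in the interval with the highest mean over the 12 libraries was used. Starts outside any interval were passed over. For Kat6b the start used was 21499770, whereas the annotated gene begins at 21481434, outside any interval. All 9 genes had a start within an interval of H3K27ac, and 7 of the 9 intervals carried the name of the member. In mm10 (GRCm38) these were chr15:81583243-81590456 for Ep300, chr16:4209763-4215262 for Crebbp, chr19:5601603-5612721 for Kat5, chr8:22857019-22863411 for Kat6a, chr14:21497543-21502794 for Kat6b, chr11:95306086-95312695 for Kat7 and chr7:127907323-127917957 for Kat8. The start of Kat2a lay in a domain of 30953 bp, chr11:100700517-100731469, which also held the starts of Dhx58 and Hspb9 and overlapped Rab5c. The start of Kat2b lay in chr17:53565944-53573485, an intronic interval named for Pp2d1. The Kat5 interval also held the start of Rnaseh2c and the Kat8 interval overlapped Bckdk, so the signal there cannot be assigned to 1 gene.

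Per length, Ep300 had the most heavily acetylated start site of the 9. Its interval averaged 85.9 scaled reads per kb over the 12 libraries, at the 97.0th percentile of the start-site intervals of 18272 genes, whose median was 37.7 (from GENCODE starts). Kat5 followed at 65.7, Kat6b at 61.3, Kat7 at 55.3, Kat2b at 51.3, Kat6a at 48.8 and Crebbp at 37.0, with Kat8 at 30.9 and Kat2a at 30.8 (35.1th and 34.8th percentile). Ep300 was above Kat5, and Kat6a above Crebbp, in 12 of 12 libraries, whereas Kat5 was above Kat6b in 7 of 12 and Kat8 above Kat2a in 7 of 12. The intermediate neighbours kept their order in 9 to 11 libraries. In vehicle the levels were 76.4 ± 5.39 (SD, n = 2) scaled reads per kb for Ep300, 54.7 ± 6.0 for Kat5, 54.2 ± 2.86 for Kat6b, 27.8 ± 0.213 for Crebbp and 24.6 ± 3.84 for Kat2a.

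The members also differed in how their signal was spread. The 79 named intervals were 184 to 11119 bp long with a median of 665 bp, and 55 of them (69.6%) were classed as intronic by the authors, against 51.5% of all intervals. For Ep300, Crebbp, Kat5, Kat7 and Kat8 the start-site interval held 67.2% to 97.8% of the signal of their named intervals, but for Kat6b it held 43.5% and for Kat6a 30.7%. Kat6b had a second domain of 11001 bp in an intron, chr14:21543272-21554272, with a mean of 359.7 scaled reads against 321.9 over the start. Kat6a had 32 named intervals, of which the largest beside the start were intronic, chr8:22879130-22884706 (181.4 scaled reads) and chr8:22869704-22875786 (138.3). Beside the start, the largest interval of Kat7 held 78.8 scaled reads, and those of Ep300, Kat5, Crebbp, Kat2b and Kat8 held 33.6, 28.2, 23.3, 10.3 and 7.28.

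Among the members with intervals of their own name, Kat2b had the largest gap between those intervals and its gene body. Its 5 named intervals summed to a mean of 43.0 scaled reads, the 28.2th percentile of gene names, while the 12 intervals that lie over its gene body summed to 1009, and 7 of these 12 carried another name. The start-site interval (386.7 scaled reads) and intronic domains of 13796 bp (402.1) and 7971 bp (141.4) were all named for Pp2d1. The intervals over the Kat8 body summed to 1058 scaled reads, against 336.4 for its named intervals, because a domain of 17113 bp at its end was named for Prss8 (721.8).

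**Figure D1:**
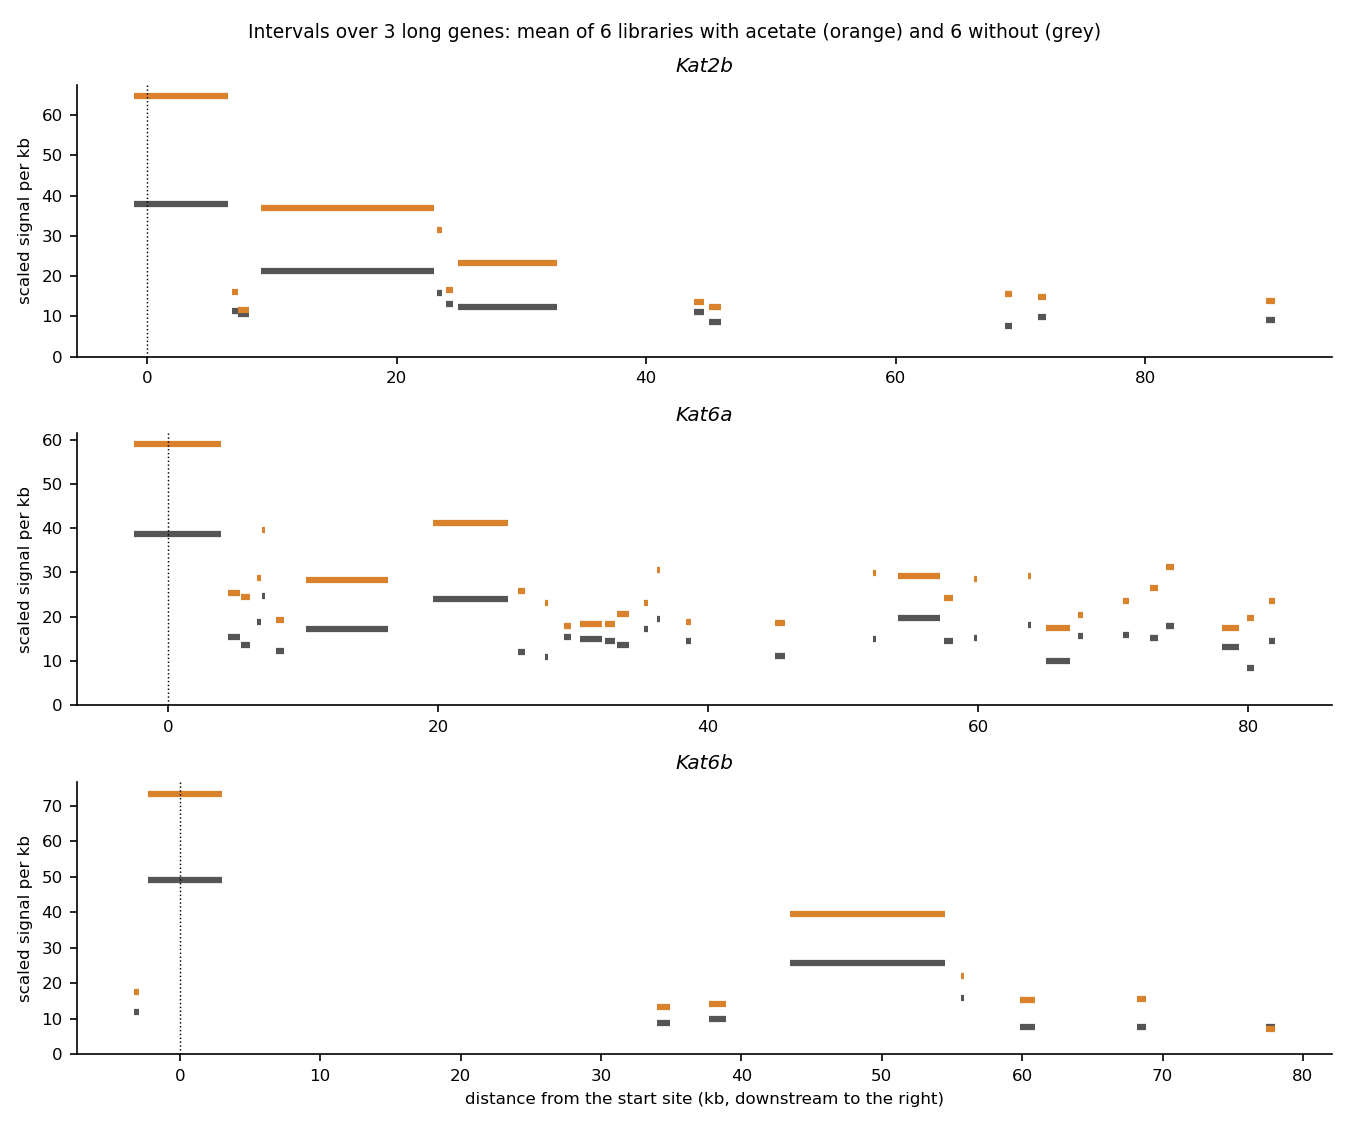
Scaled H3K27ac signal per kb (y axis) of each interval over Kat2b, Kat6a and Kat6b, placed by its distance in kb from the start site (x axis). Orange segments are means of the 6 libraries with acetate and grey segments means of the 6 without. The start-site interval is the highest per kb in each gene, and Kat2b and Kat6b have a further broad intronic domain.

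With the spike-in scaling of the authors, addition of acetate raised the signal over every member. With vehicle, etomoxir and etomoxir + SB204990 as the 3 backgrounds, the average acetate effect on the summed named intervals ran from a log2 fold change of 0.44 for Ep300 to 0.75 for Crebbp, that is 1.36-fold to 1.68-fold, and all 8 members with named intervals passed an adjusted p of 0.05 in limma. The background was of the same kind: 88.2% of 19458 genes tested were called higher, and their median log2 fold change was 0.63, against 0.60 for the members. Of the 8 members, 2 lay above the median of all genes. Under median-of-ratios and total-sum scaling, which take such a common shift out, the members' median was -0.04 and -0.02 and 0 of 8 were called. When the share of reads was multiplied by the factor, their median was 0.40 with 0 of 8 called.

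The start-site intervals gave the same count with all 9 genes. On these the average acetate effect was called higher for 9 of 9 members, against 98.3% of 17565 genes, and their median log2 fold change was 0.60 against 0.62 for all genes. In the no-inhibitor, etomoxir and etomoxir + SB204990 backgrounds, both libraries with acetate were above both without for 9 of 9 members. The same held for 91.8%, 99.3% and 90.9% of all start sites, so this separation is not particular to these genes. Within a set, each member was higher with acetate in 6 of 6 pairs of libraries, as were 94.3% of all start sites, and the folds of those pairs ran from 1.06 for Ep300 to 3.01 for Kat6b.

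**Figure D2:**
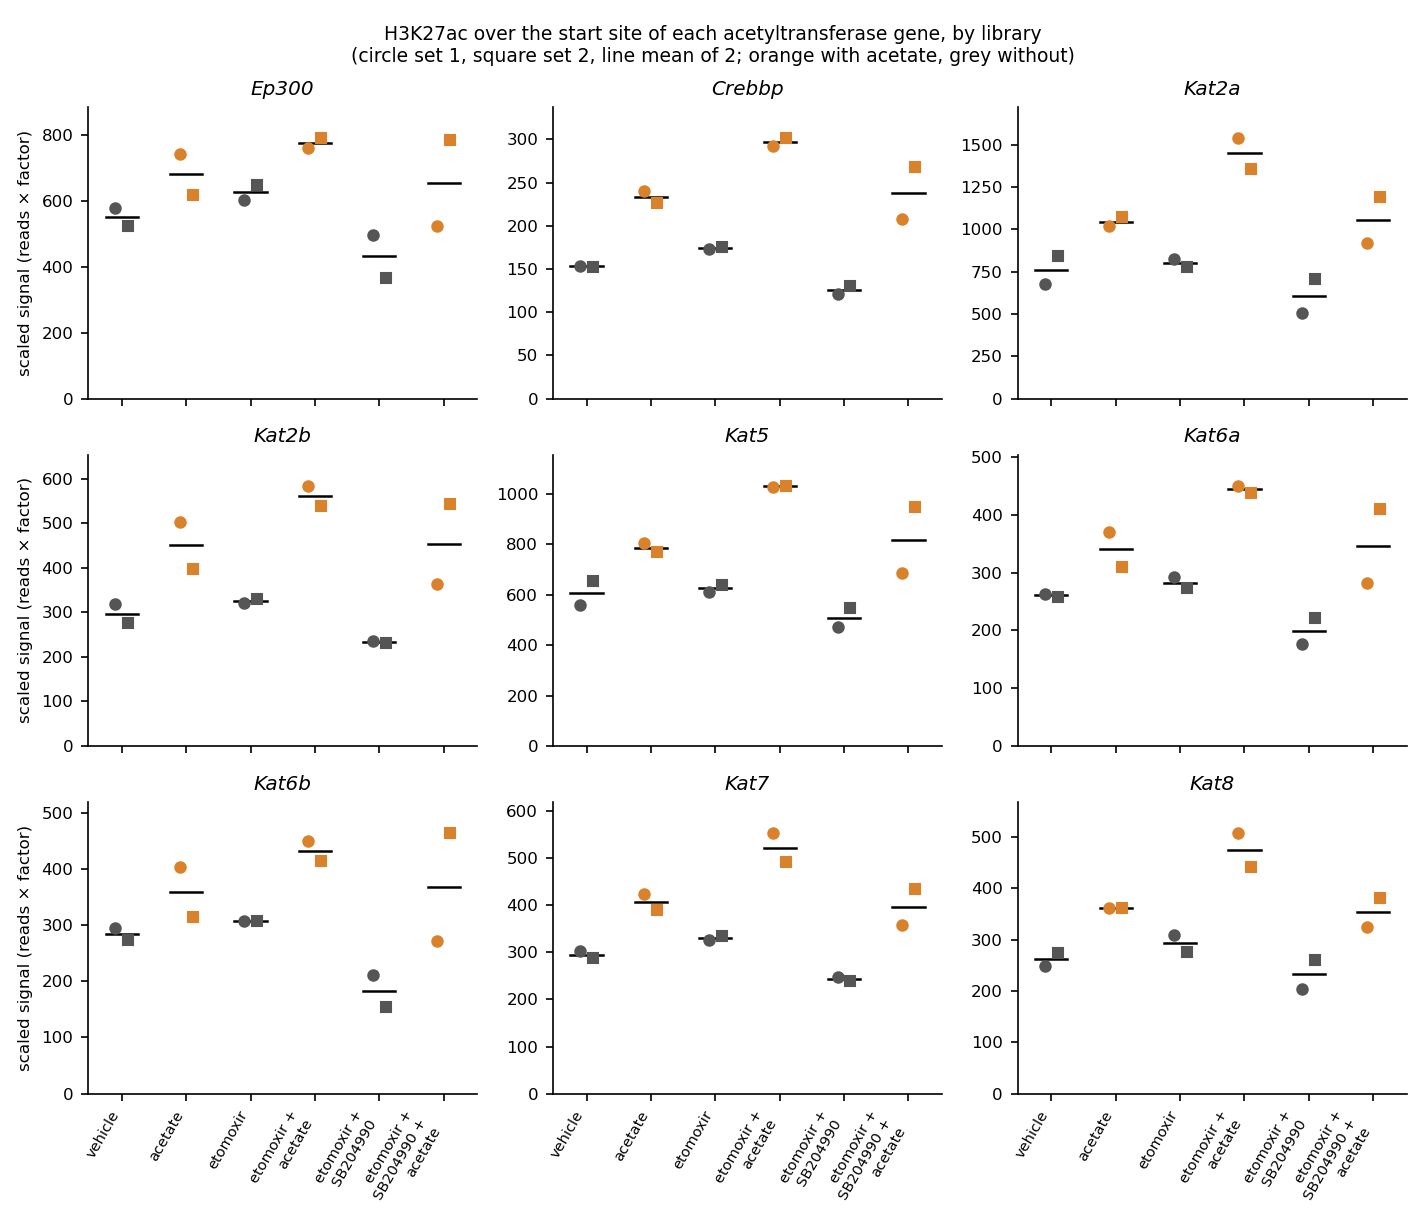
Scaled H3K27ac signal (y axis, reads multiplied by the factor of the library) of the interval over each start site, for each of the 12 libraries by treatment (x axis). Circles are set 1, squares set 2, lines the mean of 2 libraries, and orange marks acetate. With spike-in scaling, in all 9 panels the etomoxir + acetate mean is the highest and the etomoxir + SB204990 mean the lowest.

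Ep300, which encodes the p300 acetyltransferase, showed the smallest rise among the members on its named sum and its start-site interval. Its tested intronic intervals, with means of 33.6 and 21.5 scaled reads, rose by 0.69 and 0.71 on the log2 scale (limma, adjusted p = 0.0046 and 0.013). The median of all intervals tested was 0.64. Its start-site interval held 578.7 and 523.7 scaled reads in vehicle (set 1 and set 2), 742.5 and 617.7 with acetate, 602.3 and 649.4 with etomoxir, and 759.0 and 790.1 with etomoxir + acetate. With etomoxir + SB204990 it held 495.5 and 367.0 scaled reads, and 524.5 and 785.7 once acetate was added. The libraries with acetate were higher in each background, yet the lowest of them, 524.5, was below both etomoxir libraries and 1 vehicle library. The average acetate effect was a log2 fold change of 0.40 ± 0.10 (SE; limma, adjusted p = 0.00015), at the 2.4th percentile of all start sites. In the etomoxir background Ep300 was the member not called (log2 fold change 0.31, limma adjusted p = 0.093), where 8 of 9 members and 92.4% of all start sites were.

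Start sites as dense as that of Ep300 had a lower median rise than all start sites. The 1757 start sites with the highest signal per kb, 66.1 and above, had a median average acetate effect of 0.57 on the log2 scale, and Ep300 was at the 2.56th percentile among them. Its change under median-of-ratios and total-sum scaling was -0.22 and -0.23 on the log2 scale, so its direction depends on the scaling. Under both it was the lowest of the 9 start sites.

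Crebbp, the paralogue that encodes CBP, showed one of the larger rises. Its start-site interval held 153.8 and 152.1 scaled reads in vehicle, 240.2 and 226.6 with acetate, 172.6 and 175.8 with etomoxir, and 292.0 and 301.4 with etomoxir + acetate. With etomoxir + SB204990 it held 121.5 and 130.0 scaled reads, and with acetate added 208.3 and 268.0. No library with acetate was as low as any library without it, which held for 6 of 9 members and for 49.3% of all start sites. The average acetate effect was 0.76 ± 0.11 on the log2 scale (SE; limma, adjusted p = 9.3e-11), at the 89.3th percentile of all start sites and at the 90.4th among the 1756 of like density.

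The Ep300 to Crebbp ratio within a library does not depend on the factor of that library. It ran from 2.82 to 4.08 (median 3.59) in the 6 libraries without acetate and from 2.52 to 3.09 (median 2.67) in the 6 with it. The ratio was lower with acetate in 5 of 6 pairs of the same set, the exception being set 2 with both inhibitors, where it went from 2.82 to 2.93. The mean difference was -0.36 on the log2 scale, with -0.47 in set 1 and -0.26 in set 2. A two-sided exact permutation test within backgrounds gave p = 0.0185 (216 arrangements, smallest possible p 0.00926) and 0.0556 after Benjamini-Hochberg adjustment over the 3 paralogue pairs, so the difference misses the threshold. Leaving out set 2 of etomoxir + SB204990 gave -0.45 (adjusted exact permutation p = 0.028), and leaving out its set 1 gave -0.28 (0.083). This test was chosen after the values of these genes had been seen.

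**Figure D3:**
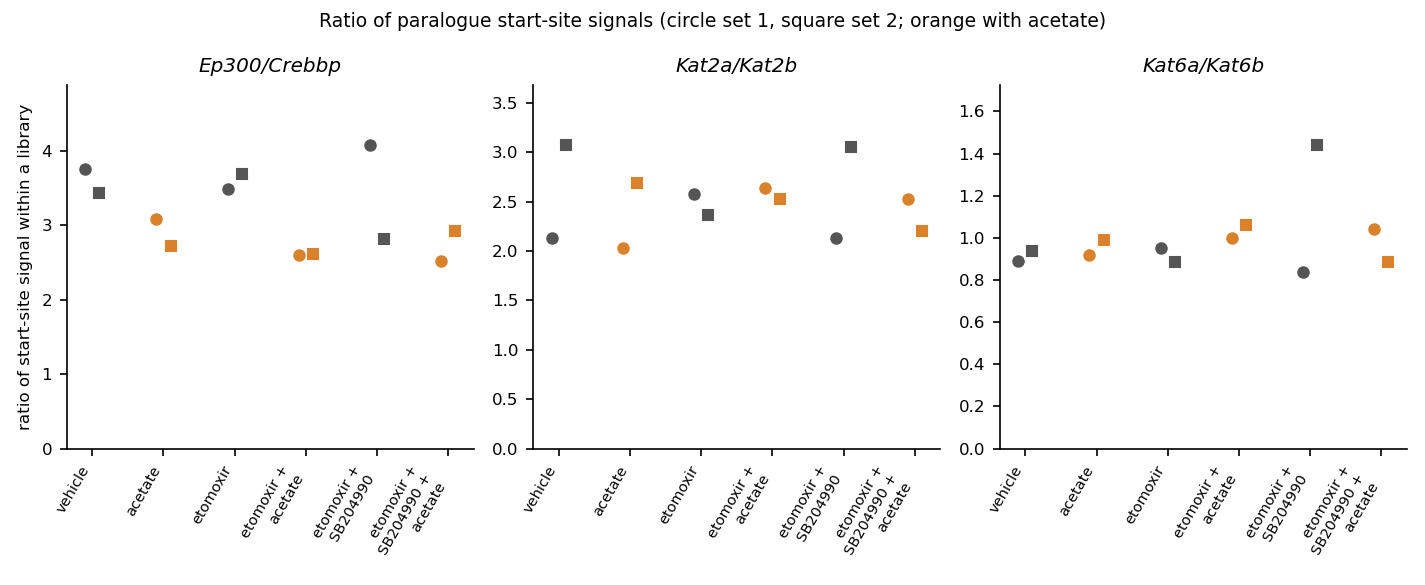
Ratio of start-site signals within each library (y axis) for the 3 paralogue pairs, by treatment (x axis), with circles for set 1, squares for set 2 and orange for acetate. The Ep300/Crebbp ratio is 2.52 to 3.09 with acetate and 2.82 to 4.08 without, and the ranges of the other pairs overlap widely.

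Kat2a and Kat2b, the SAGA and ATAC catalytic subunits, were both among the members with larger rises at the start site. The Kat2a domain held 677.3 and 845.4 scaled reads in vehicle, 1019 and 1071 with acetate, 825.2 and 777.6 with etomoxir, and 1539 and 1360 with etomoxir + acetate. It held 503.8 and 705.0 with etomoxir + SB204990, and 920.4 and 1193 after addition of acetate. The lowest library with acetate was above the highest without, as for Crebbp. The Kat2a domain rose by 0.71 ± 0.10 on the log2 scale (SE; limma, adjusted p = 5.7e-11), a value it shares with the neighbouring genes whose starts lie in it.

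The Kat2b start-site interval followed the same order. It held 317.8 and 275.7 scaled reads in vehicle, 502.2 and 398.0 with acetate, 320.0 and 329.8 with etomoxir, and 584.0 and 538.6 with etomoxir + acetate. With etomoxir + SB204990 it held 236.6 and 231.0, and 364.1 and 542.0 after acetate. Libraries with and without acetate did not overlap. Its average acetate effect, 0.77 ± 0.11 on the log2 scale (SE; limma, adjusted p = 9.3e-12), was at the 90.3th percentile of all start sites. The intronic domains of 13796 and 7971 bp downstream of it rose by 0.78 and 0.94 on the log2 scale (limma over 63903 intervals, adjusted p = 4.1e-10 and 1.3e-09).

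The intervals that bear the name of Kat2b, by contrast, gave an uncertain value. Their sum ran from 16.7 scaled reads in set 1 of etomoxir + SB204990 to 75.8 in set 2 of etomoxir + acetate. The acetate effect on that sum was 0.57 ± 0.25 on the log2 scale (SE; limma, adjusted p = 0.033). It lost the call with DESeq2 (adjusted p = 0.059) and without any 1 of 6 libraries: set 1 of vehicle, acetate, etomoxir or etomoxir + SB204990, or set 2 of etomoxir + acetate or etomoxir + SB204990 + acetate. Of these the lowest value was 0.32, without set 1 of etomoxir + SB204990 (limma, adjusted p = 0.083). The Kat2a to Kat2b ratio of start-site signal was 2.13 to 3.07 without acetate and 2.03 to 2.69 with it, and differed by -0.06 on the log2 scale (exact permutation p = 0.667).

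In the average acetate effect the 5 MYST genes lay close to the median of all genes. For Kat5, whose product acetylates histones and the kinase ATM, the start-site interval held 471.6 to 655.2 scaled reads (6 libraries) without acetate and 687.5 to 1033 with it. For Kat7, the HBO1 gene, the ranges were 240.0 to 334.4 and 359.0 to 553.0, and for Kat8, whose product acetylates H4K16, they were 203.1 to 308.6 and 325.3 to 507.0. These 3 genes are among the 6 members, against 49.3% of all start sites, whose libraries with and without acetate did not overlap. The Kat6a start-site interval held 176.8 to 291.5 scaled reads without acetate and 282.0 to 450.0 with it, so that 1 library with acetate lay below an etomoxir library. The average acetate effects at the start sites were 0.59 for Kat5, 0.60 for Kat6a, 0.59 for Kat6b, 0.60 for Kat7 and 0.59 for Kat8 on the log2 scale, at the 38.8th to 44.7th percentile.

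On the sums of named intervals the MYST genes gave log2 fold changes of 0.60 (Kat5), 0.65 (Kat6a), 0.60 (Kat6b), 0.63 (Kat7) and 0.59 (Kat8), each with an SE of 0.11 or 0.12 and a limma adjusted p of at most 0.00013. The intronic intervals of Kat6a rose by 0.76 and 0.69, and the intronic domain of Kat6b by 0.62 (limma, adjusted p = 1.4e-07, 6.4e-06 and 9.1e-07). The Kat6a to Kat6b ratio of start-site signal was 0.838 to 1.44 without acetate and 0.884 to 1.06 with it (log2 difference 0.01, exact permutation p = 0.972). The 1.44 came from set 2 of etomoxir + SB204990, and the next highest ratio without acetate was 0.951. The ratio was lower with acetate in 1 of 6 pairs of the same set, with a mean log2 difference of 0.14 in set 1 and -0.12 in set 2.

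**Figure D4:**
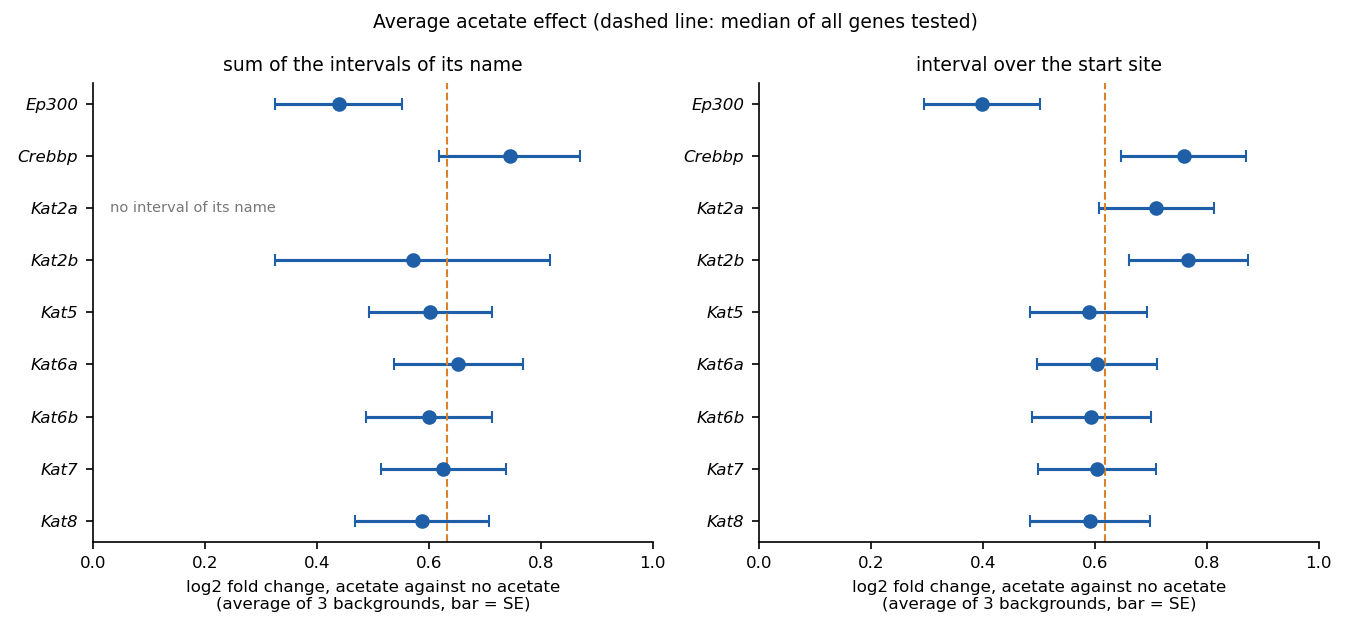
Log2 fold change of acetate against no acetate, averaged over the 3 backgrounds (x axis, bars are SE from limma), for each member (y axis), on the sum of the intervals of its name (left) and on the start-site interval (right). The dashed line is the median of all genes tested, 0.63 and 0.62. Ep300 lies lowest in both panels, above 0 with the spike-in scaling shown and below 0 under median-of-ratios and total-sum scaling.

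Among single intervals, 34 of the 79 had a mean of at least 10 scaled reads and were tested. The average acetate effect was called higher at 27 of the 34, against 77.2% of 63903 intervals, with 12 of 16 for Kat6a, 3 of 4 for Kat6b and for Kat7, 3 of 3 for Ep300 and for Kat5, 2 of 2 for Crebbp, 1 of 1 for Kat8 and 0 of 1 for Kat2b. In the etomoxir background 18 were called (56.4% of all intervals) and in the etomoxir + SB204990 background 9 (27.4%). Single libraries moved these counts: the 27 became 17 without set 2 of acetate, the 18 became 2 without set 1 of etomoxir + acetate or set 2 of etomoxir and 11 without set 1 of etomoxir, and the 9 became 0 without set 2 of etomoxir + SB204990 + acetate, 4 without set 1 of etomoxir + SB204990 and 21 without its set 2. Over all omissions the shares of all intervals called ran from 58.2% to 94.8%, 8.05% to 76.8% and 3.31% to 71.6% in these 3 comparisons. Of the 12 intervals with a member's name and a mean of at least 50, the largest average changes were at the Crebbp start (0.76), the Kat6a intron (0.76) and the Kat7 interval chr11:95298992-95302914 at the end of a transcript (0.71; limma, adjusted p = 8.2e-05). Some intervals over a gene body but named for a neighbour rose further, by 0.94, 0.78 and 0.77 over Kat2b and 0.77 over Kat8.

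Without an inhibitor the calls depended on the measure. Acetate against vehicle gave log2 fold changes of 0.32 to 0.61 for the named sums, and 0 of 8 were called by limma, edgeR or DESeq2 (0% of all genes), although 4 of 8 had an unadjusted limma p under 0.05, as did 42.9% of all genes. Without set 1 or set 2 of etomoxir + SB204990, 5 of 8 were called, against 61.1% and 61.2% of all genes. On the start-site intervals 5 of 9 were called (Crebbp, Kat2a, Kat2b, Kat7 and Kat8; 62.7% of all start sites). That count was 0 without either library of vehicle or of acetate, 2 without either etomoxir library and 3 without either etomoxir + acetate library, while the share of all start sites called ran from 0% to 75.4% over the omissions. For single intervals 0 of 34 were called by limma, edgeR or DESeq2 (limma called 0.0955% of all intervals), with 6 at an unadjusted limma p under 0.05, against 26.5% of all.

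With etomoxir present more members passed the test. For etomoxir + acetate against etomoxir the named sums changed by 0.39 to 0.90 on the log2 scale, and 6 of 8 were called higher by limma (78.2% of all genes), the exceptions being Ep300 (adjusted p = 0.070) and Kat2b. Without set 1 of etomoxir + acetate this named-sum count was 3 of 8, against 28.8% of all genes. Over gene bodies 9 of 9 were called, as were 89.0% of all genes, with Ep300 at 0.40 on the log2 scale (limma, adjusted p = 0.043) and Kat2b at 0.89 (4.3e-05). Among the 12 intervals with a member's name and a mean of at least 50, the largest changes were those of the Kat7 transcript end (1.07; limma, adjusted p = 0.0017) and of Kat6a introns (1.00 and 0.90; adjusted p = 0.00063 and 0.0078). The Kat2b intronic domain of 7971 bp, named for Pp2d1 and so not among these, rose by 1.13 (limma, adjusted p = 0.00016). Whether the acetate effect differed between etomoxir and no inhibitor was tested as an interaction, and 0 of 8 members were called by limma, edgeR or DESeq2 (0% of all genes), with 0 at an unadjusted p under 0.05.

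With both inhibitors, acetate raised most members. The named sums changed by 0.47 to 0.80 on the log2 scale relative to etomoxir + SB204990, and 7 of 8 were called higher by limma (57.7% of all genes), Kat2b being the exception. On the start sites 9 of 9 were called (89.3% of all start sites). The count of 7 became 0 without set 2 of etomoxir + SB204990 + acetate and 4 without set 1 of etomoxir + SB204990 (0% and 19.1% of all genes). The interaction with etomoxir + SB204990 was called for 0 of 8 members (0% of all genes, limma, edgeR and DESeq2), with 0 at an unadjusted limma p under 0.05.

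For etomoxir alone no member differed from vehicle by the test. The log2 fold changes of the named sums were 0.02 to 0.24 with a median of 0.16, against 0.14 for all genes, and the median became -0.06 when the share of reads was multiplied by the factor. On the named sums 0 of 8 were called by limma, edgeR or DESeq2 and 0 had an unadjusted p under 0.05, where 0.0154% of all genes were called. On the start sites 0 of 9 were called by limma, edgeR or DESeq2 (0.182%), with 0 at an unadjusted p under 0.05. Within sets, the start-site folds were 1.01 to 1.24 in set 1 and 0.920 to 1.24 in set 2, with Kat2a and Kat5 below 1 in set 2.

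Addition of SB204990 to etomoxir lowered the signal at 6 of the 9 start sites by limma under spike-in scaling. Both etomoxir + SB204990 libraries were below both etomoxir libraries for 9 of 9 members, as they were for 78.7% of all start sites. The log2 fold changes were -0.30 to -0.76, and 6 of 9 were called lower by limma and by DESeq2 and 5 by edgeR (limma, 33.8% of all start sites): Ep300, Crebbp, Kat2b, Kat6a and Kat6b passed, and Kat2a did so at the edge (adjusted p = 0.050). The members' median was -0.47 against -0.41 for all genes, and it changed sign, to 0.03, when the share of reads was multiplied by the factor. The count of 6 was 0 without either etomoxir library, 1 without acetate set 1, either vehicle or either etomoxir + acetate library, and 2 without acetate set 2 or etomoxir + SB204990 set 1, and over all such omissions the share of all start sites called lower ran from 0% to 63.2%. On the named sums 0 of 8 were called by limma, edgeR or DESeq2 (0% of all genes), with 2 at an unadjusted limma p under 0.05 (21.0% of all genes), and the count became 1 without set 1 of etomoxir + SB204990 and 5 without its set 2 (1.15% and 63.8% of all genes called lower).

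Of the start sites called lower, that of Kat6b fell furthest. Its start-site interval held 295.4 and 274.1 scaled reads in vehicle, 402.6 and 313.6 with acetate, 306.3 and 307.5 with etomoxir, and 449.0 and 413.8 with etomoxir + acetate. With etomoxir + SB204990 it held 211.1 and 154.0, and 272.3 and 463.1 with acetate added. Both etomoxir + SB204990 libraries were below every other library. The change from etomoxir was -0.76 ± 0.19 on the log2 scale (SE; limma, adjusted p = 0.007), at the 0.7th percentile of all start sites and the 0.342th of the 1756 of like density, whose median was -0.46. The limma adjusted p was 0.19 or 0.21 when set 1 or set 2 of etomoxir was left out, and 0.077 without an intensity trend. Under the other 3 scalings the change was -0.27, -0.36 and -0.41 on the log2 scale and was not called. Within sets the level was 0.689 and 0.501 of that with etomoxir.

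Relative to vehicle the Kat6b start site differed by -0.66 on the log2 scale, at the 0.8th percentile, but did not pass the test (limma, adjusted p = 0.10). Its change on addition of acetate to both inhibitors was 0.97 (limma, adjusted p = 1.8e-05), the largest of the members, and 1.29-fold in set 1 but 3.01-fold in set 2. The interaction at this start site was 0.66 on the log2 scale, with an unadjusted p of 0.013 and an adjusted p of 0.71. The intronic domain of Kat6b held 189.6 and 275.0 scaled reads with etomoxir + SB204990 and 328.0 and 331.6 with etomoxir, a change of -0.53 (limma over single intervals, adjusted p = 0.24). The low set 2 value at the start site comes from the library with the fewest reads, and the part of that library's depth in it was not tested.

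Relative to vehicle, both etomoxir + SB204990 libraries were lower at the start sites of 7 of 9 members, as at 57.6% of all start sites, but 0 of 9 passed the test by limma, edgeR or DESeq2 (0.222% of all start sites called). Unadjusted, 3 of 9 had a limma p under 0.05, against 18.4% of all start sites. On the named sums the log2 fold changes were -0.17 to -0.43 (median -0.24, which became 0.04 when the share of reads was multiplied by the factor) and 0 of 8 were called by limma, edgeR or DESeq2 (0.00514%), with 1 at an unadjusted p under 0.05 (4.24% of all genes). For all 9 start sites and all 8 named sums the means of the treatments fell in 1 order: etomoxir + SB204990 lowest, then vehicle, then etomoxir, with etomoxir + acetate highest. This was also the order at 76.3% of all start sites and 58% of all named sums. The libraries of the neighbours vehicle and etomoxir overlapped at 2 of 9 start sites, against 44.2% of all, and acetate and etomoxir + SB204990 + acetate exchanged places, acetate being higher at 3 of 9 start sites.

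Genes of the partners of these enzymes were examined in the same way. Of 78 listed subunits, co-activators, other acetyltransferases and acetyl-lysine readers, 72 could be tested as named sums, and the average acetate effect was called higher in 71, where 88.2% of all genes were, with a median of 0.61 against 0.63 for all genes under spike-in scaling and of -0.02 and -0.01 with 0 called under median-of-ratios and total-sum scaling. Among the p300/CBP partners 9 of 10 were called, from Cited4, a CBP-binding transactivator (0.49, limma adjusted p = 0.13), to Carm1, an arginine methyltransferase (0.79). All 15 SAGA and ATAC genes were called, from Dr1 (0.44) to Taf6l (0.73), as were all 16 NuA4/TIP60 genes, from Epc2 (0.45), an enhancer-of-polycomb homologue, to Yeats4 (0.85), a reader of acetylated lysine.

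All 9 genes of the MOZ/MORF and HBO1 complexes were called, from the scaffold Brpf1 (0.52) to Ing5 (0.81), which binds methylated H3K4. Of the MSL and NSL genes 10 of 10 were called, from Ogt (0.49), the O-GlcNAc transferase, to Mcrs1 (0.96), whose 12 values were low, 12.6 to 57.6 scaled reads. In the comparison of both inhibitors with etomoxir 0 of the 72 named sums were called by limma, edgeR or DESeq2, with 27 at an unadjusted limma p under 0.05 (21.0% of all genes), and at start sites limma called 35 of 75 lower, against 33.8% of all start sites. The named sums had a median of -0.40, which became 0.10 when the share of reads was multiplied by the factor. At the start sites the median of -0.45 became 0.04 in the same way. There 0 of 75 were called under that scaling, median-of-ratios scaling or total-sum scaling.

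Some genes had patterns much like those of members over the 12 libraries. Among 15534 gene names with a mean of at least 50 scaled reads, the log2 signal relative to the library median correlated most with that of Ep300 for Arl6ip6 (Pearson r = 0.992) and Dido1 (0.989), and with that of Kat6b for Anxa5 (0.980) and 1810012K16Rik (0.967). For Kat5 the most alike were 1700025H01Rik (0.962) and Gm45833 (0.950), for Kat7 Psmd12 (0.964) and Dgcr8 (0.954), and for Kat6a Dmrt1i (0.943) and Tgds (0.899). Crebbp (Gm29561, 0.925, and Gm14167, 0.915), Kat8 (Haus3, 0.909, and Mrpl23, 0.907) and Kat2b (Pate10, 0.883, and Platr22, 0.860) had less close matches. These are the highest values of a search over many genes in 12 shared libraries, and are given as a description.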

How the data were processed

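H3K27ac ChIP-seq of 12 4T1 libraries was analysed. Per the labels and the study's methods, 7.5% human chromatin was added as a spike-in, and the deposited table gives 1 signal value per interval and library, the read count multiplied by a spike-in factor. The authors aligned reads to mouse (GRCm38, mm10) and human (GRCh38) sequence joined in 1 reference, the builds named in the submitters' processing notes. The factor of each library was inferred from its smallest non-zero value, taken as 1 read. Reads were recovered by dividing by it (100% whole within 0.01). Input libraries were not used here.

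Values were summed per gene name, or taken over the GENCODE start site, where an interval over several starts counts for each. Of several starts of a gene, the one in the interval with the highest mean was used. Features with a mean of at least 10 were tested with limma 3.58.1 (R 4.3.3) on log2(value + 1), with all 6 groups in 1 model and a prior variance that follows intensity, with Benjamini-Hochberg adjustment over all features and a threshold of 0.05. The script was tested on simulated data. edgeR 4.0.16 and DESeq2 1.42.0 were run on recovered reads. Comparisons with a shared group are not independent.

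The members and lists were chosen with earlier results of these data known. By rule, the text names all members and their start-site and largest other interval. It also names up to 3 intervals with a member's name per comparison by size of change, at a mean of at least 50. The extreme partners of each complex in the average acetate effect and the 2 most alike genes are named as well.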

Additional observations from a re-analysis of the deposited data

How the results depend on the processing

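The scaling decides whether members are called. Under median-of-ratios scaling, total-sum scaling and the share of reads times the factor, 0 members and 0 member intervals were called in every acetate comparison and for start sites, against up to 9 and 27 as reported. In the average acetate effect each of them also called 0 of 72 partner named sums and 0 of 75 partner start sites, so the absence of calls is not particular to the members. The average acetate effect changed sign under median-of-ratios and total-sum scaling for Ep300 (-0.199 and -0.187; start site -0.223 and -0.227), Kat2b (-0.051 and -0.039), Kat5 (-0.035 and -0.023), Kat6b (-0.038 and -0.026) and Kat8 (-0.049 and -0.036), and under the former for Kat7 (-0.012). At start sites 6 of 9 members were below 0 under each (49.9% and 51.4% of all start sites), the exceptions being Crebbp, Kat2a and Kat2b. Median-of-ratios and total-sum scaling set the common shift to about 0 by construction. The share of reads times the factor kept a shift, with a median average acetate effect on named sums of 0.40 for the members and 0.43 for all genes. In all, 450 of 543 recomputed counts and ratios kept their call or stayed within 1.5 times, and of 286 recomputed single-gene values 37 lost the call and 13 changed sign.

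With only the 4 libraries of a comparison, acetate against vehicle called 7 members, 6 intervals and 9 start sites (61.5%, 23.3% and 83% of all), etomoxir + acetate against etomoxir called 28 intervals (84%), and acetate with both inhibitors called 0 members, intervals and start sites (0% of all called higher). A mean of at least 50 left 12 intervals called for the average effect, 2 without inhibitor, 11 with etomoxir and 1 for etomoxir + SB204990 against etomoxir, of 12 tested (99.1%, 25.6% and 92.3% of all such intervals called higher and 0.203% lower). Without the intensity trend, 0 intervals were called with both inhibitors, and 0 start sites for acetate against vehicle or both inhibitors against etomoxir (0% and 1.78% of all called higher and 0.0114% lower). Start sites in place of named sums gave 5 members for acetate against vehicle and 6 for both inhibitors against etomoxir, and gene bodies 6 for the former (62.7%, 33.8% and 46.0% of all). The recomputed start-site counts, start-site folds and paralogue ratios were added after the data were seen.

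Leaving out each library leaves 1 in its group. It moved the number of members called on named sums, and the share of all genes called, in all the comparisons listed next. These were the average effect, acetate against vehicle, acetate with etomoxir, acetate with both inhibitors, and both inhibitors against vehicle and against etomoxir. The ranges were 17 to 32, 0 to 4, 2 to 26, 0 to 21, 0 to 1 and 0 to 3 for single intervals (58.2% to 94.8%, 0% to 21.2%, 8.05% to 76.8% and 3.31% to 71.6% of all called higher, then 0% to 3.92% and 0% to 25.1% lower). Over all genes, for acetate against vehicle, with etomoxir and with both inhibitors, the share of all genes called higher ran from 0% to 61.2%, 28.8% to 92.2% and 0% to 91.4%, and the share called lower for both inhibitors against etomoxir from 0% to 63.8%. For start sites they were 0 to 7 for acetate against vehicle, 7 to 8 with etomoxir, 8 to 9 with both inhibitors and 0 to 9 for both inhibitors against etomoxir (0% to 75.4%, 70.8% to 94.9% and 63.0% to 94.6% of all called higher and 0% to 63.2% lower). The Ep300/Crebbp difference ran from -0.45 to -0.28, Kat2a/Kat2b from -0.15 to 0.03 and Kat6a/Kat6b from -0.12 to 0.14.

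The set suffix did not pair libraries across all groups: deviations of the 15 pairs of groups correlated from -0.23 to 0.60, with 4 above 0.1, of which the 3 among vehicle, acetate and etomoxir + SB204990 were 0.56 to 0.60. With the set as a replicate block, 1 member was called for acetate against vehicle. The share of all genes called with this block is not given here, so that count is not a result about the members. No other call count moved by over 1.5 times. With this block the Ep300/Crebbp ratio gave an exact permutation p of 0.062.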

Other observations

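Other enzymes and readers of acetylation not described above also rose with acetate under spike-in scaling. All 10 further acetyltransferase genes were called higher by limma in the average acetate effect on named sums, as were 88.2% of all genes, from Taf1 (0.48), a TFIID subunit, to Naa40 (0.71), the N-terminal acetyltransferase of H4 and H2A. Brd3, a BET reader that binds acetylated histones, held 360.0 to 999.0 scaled reads over the 12 libraries as a named sum and rose by 0.75 on the log2 scale (limma, adjusted p = 1.8e-05). At its start site Brd2, of the same family, held 1191 to 2911 scaled reads and rose by 0.54 on the log2 scale (limma, adjusted p = 1.9e-07), at the 22.2th percentile of all start sites. The same scalings that bring the median of all genes to about 0 apply to these values.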
